A study of Mus musculus with 5 samples.

Results

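Metallothioneins and ferritins are the small proteins in which a cell stores and buffers zinc, copper and iron. Their mRNAs were followed here in single nuclei and in mitochondria-rich debris of the mouse central amygdala (CeA). The CeA is a forebrain region with GABAergic neurons that influence feeding. The 8 genes described are Mt1, Mt2 and Mt3 (metallothioneins), Fth1 and Ftl1 (the heavy and light subunits of ferritin), Slc30a10 (a manganese exporter of the zinc transporter family), Tfrc (the transferrin receptor, which takes up iron) and Slc40a1 (ferroportin, which exports iron). They were taken by symbol from 22532 measured genes. All 8 were present, and they had been chosen with their fed and fasted values in view.

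Metallothioneins bind zinc and copper through clustered cysteines. Zinc activates the transcription factor Mtf1, which binds metal response elements in their promoters, and glucocorticoid hormones also induce Mt1 and Mt2. Mt3 is the form best known from the nervous system. Ferritin subunits assemble into a shell around an iron core, and the translation of Fth1 and Ftl1 and the stability of Tfrc mRNA are set by iron regulatory proteins that bind RNA hairpins named iron-responsive elements. In the brain, astrocytes are a main site of metallothionein expression, and oligodendrocytes and microglia are known for their iron stores.

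The study compared fed with fasted mice by droplet-based single-nucleus RNA sequencing, in which each captured mRNA carries a unique molecular identifier (UMI) and a barcode of its droplet. There were 3 fed libraries and 2 fasted libraries, each from the pooled CeA of 1 male and 1 female mouse. The labels give the mice as C57BL6, and the study's methods as C57BL/6NRj for wild-type animals and as a C57BL/6N background for transgenic lines. Fed replicates 1 and 2 came from mice of 8 weeks with free access to food. Fed replicate 3 came from fed Htr2a-Cre mice of 12 weeks, which carry Cre under the control of an Htr2a bacterial artificial chromosome and had received a Cre-dependent mCherry virus in the CeA. Fasted replicates 1 and 2 came from mice of 8 weeks labelled as fasted for 20 and 21 hours. Matched by number to a legend of the study, fed and fasted replicates 1 shared a preparation batch, as did fed and fasted replicates 2. Fed replicate 3 was taken as the remaining fed library of that legend, a batch of its own. Its genotype, virus, age and batch therefore cannot be told apart.

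The 5 libraries held 23839 barcodes. Nuclei were barcodes with 500 to 8000 genes and under 0.8% of UMIs from the 13 mitochondrial genes, and 7161 met both limits, from 1130 to 1734 per library. Debris was defined as barcodes with at least 5% mitochondrial UMIs, which a nucleus should lack, and numbered 3152, 910 and 123 in fed replicates 1 to 3 and 4800 and 4552 in fasted replicates 1 and 2. No bound on genes or UMIs was set for debris, so it could hold whole cells or nuclei with cytoplasm. The median number of genes per debris barcode was 622, 613.5 and 1851 in fed and 887.5 and 1271.5 in fasted libraries. Marker genes placed 6502 nuclei in 1 class. The classes used were neurons with a Gad1 or Gad2 UMI (796 to 1393 per library), astrocytes (56 to 144), oligodendrocytes (18 to 58) and, for levels only, microglia (5 to 29). Among the 10 genes that led each class by fold, neurons had 1 of their own markers (Rbfox3), astrocytes 4, oligodendrocytes 6 and microglia 5, with no marker of another class. Raw UMIs were summed per class and library and are given as CPM, the UMIs of a gene per 1000000 UMIs of that sum. The sums held 8616310 to 27613204 UMIs in neurons, 152406 to 657055 in astrocytes, 42703 to 250774 in oligodendrocytes and 577073 to 13930677 in debris. The glial values therefore rest on few UMIs.

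Sequences that match the regulatory elements described above are shown first. The 3 metallothionein genes among the 8 lie head to tail on the plus strand of chromosome 8 (GRCm39): Mt3 at chr8:94879220-94881088, Mt2 at chr8:94898819-94900207 and Mt1 at chr8:94905710-94906955. Mt1 and Mt2 are separated by 5502 bases, and Mt2 and Mt3 by 17730 bases. The core of the metal response element (TGCACNC or TGCGCNC, searched on both strands of the 500 bases before the coding start) occurred 5 times at Mt1, 7 times at Mt2, 3 times at Mt3 and 4 times at Slc30a10, and did not occur in these windows of Fth1, Ftl1, Tfrc or Slc40a1. Of 21770 genes, 35.8% had at least 1 match in the same window, 4.31% at least 3, 1.38% at least 4, 0.478% at least 5 and 0.0459% at least 7. The windows of Mt2, Fth1, Tfrc and Slc40a1 lay wholly inside the annotated gene. The bases before the start of these genes were therefore not searched. The matches of Mt1 and the matches nearest the coding start of Mt2 and Mt3 are printed 5′ to 3′ on the strand of the match, with the core in capitals and with their distance from the coding start in parentheses.
Mt1 (245 bases): cccgctgTGCACACtggcgct
Mt1 (220 bases): ggagctcTGCACTCcgcccga
Mt1 (202 bases): cgaaaagTGCGCTCggctctg
Mt1 (138 bases, minus strand): aagggttTGCACCCagcaggc
Mt1 (124 bases): aacccttTGCGCCCggactcg
Mt2 (119 bases): gagctttTGCGCTCgacccaa
Mt3 (107 bases): cgctgctTGCGCGCccccgcc

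Fth1 (chr19:9957911-9962462, plus strand) and Ftl1 (chr7:45107367-45109308, minus strand) each had 1 iron-responsive element in the 5′ UTR, Slc40a1 (chr1:45947211-45965683, minus strand) had 1 in the 5′ UTR, and Tfrc (chr16:32427556-32451612, plus strand) had 4 in the 3′ UTR. Slc30a10 (chr1:185186973-185200959, plus strand) had none. The element was searched as an unpaired C, a paired arm of 5 bases, a loop of CAGTG with A, C or T, and the matching arm. Pairs of G with T were allowed in the arms. The element was found before the coding part in 20 of 21770 transcripts (0.0919%) and after it in 93 (0.427%). Tfrc was the 1 transcript with 2 or more after the coding part. The elements are shown because they set the ferritin and receptor genes apart from the metallothioneins. The unpaired C and the loop are in capitals.
Fth1, chr19:9960095-9960124: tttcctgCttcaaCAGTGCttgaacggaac
Ftl1, chr7:45109203-45109232, minus strand: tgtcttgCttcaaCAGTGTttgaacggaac
Slc40a1, chr1:45964625-45964654, minus strand: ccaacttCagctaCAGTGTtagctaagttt
Tfrc, chr16:32450036-32450065: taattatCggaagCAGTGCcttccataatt
Tfrc, chr16:32450415-32450444: acattatCgggagCAGTGTcttccataatg
Tfrc, chr16:32450480-32450509: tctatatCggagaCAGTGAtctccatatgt
Tfrc, chr16:32450527-32450556: taattatCgggaaCAGTGTttcccataatt

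Most UMIs of the metallothionein and ferritin genes lay in debris barcodes and not in the barcodes taken as nuclei. Debris barcodes held 95.6%, 91.7% and 73.0% of all Mt1 UMIs in fed replicates 1 to 3 and 95.2% and 87.4% in fasted replicates 1 and 2. The same barcodes held 32.0%, 6.97% and 2.42% of all UMIs in the fed libraries and 39.7% and 26.2% in the fasted libraries. For Fth1 the debris shares were 92.2%, 89.3% and 58.4% in the fed libraries and 90.4% and 83.6% in the fasted libraries. The metal transport genes behaved otherwise. For Slc30a10, debris held 24.6%, 5.26% and 1.81% of the UMIs in fed and 25.8% and 18.6% in fasted libraries, below the share of all UMIs in the same barcodes. For Tfrc the shares were 28.7%, 4.78% and 1.22% in fed and 31.4% and 23.0% in fasted libraries. Debris against neurons was among the contrasts that chose the genes, so these differences are a description. On the log2 scale of the fit they were 8.19 ± 0.45 (SE) for Mt1, 7.89 ± 0.31 for Mt2, 7.70 ± 0.36 for Mt3, 7.81 ± 0.40 for Fth1 and 7.12 ± 0.25 for Ftl1, against 0.09 ± 0.17 for Slc30a10 and 0.13 ± 0.15 for Tfrc. Of the 7 genes that passed the filter on low counts, 5 were called in that comparison, in which 82.8% of all genes were called.

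The cells from which the debris came could be read in part from its markers. Debris with astrocyte markers had 5792, 6030 and 3733 CPM of Mt1 in the fed libraries and 7914 and 8148 CPM in the fasted libraries. Debris with neuron markers had 1869, 1901 and 1702 CPM of Mt1 in fed and 2411 and 3684 CPM in fasted libraries. In each library Mt1 was thus higher in debris that carried astrocyte markers. That debris also had more mitochondrial UMIs, at 21.7%, 21.5% and 20.0% in fed and 23.0% and 16.1% in fasted libraries. With neuron markers the share was 11.4%, 13.7% and 13.6% in fed and 9.35% and 12.6% in fasted libraries. Per mitochondrial UMI and relative to all debris of the library, Mt1 was 1.26 to 1.47 with astrocyte and 0.727 to 0.945 with neuron markers. The part of this share in the CPM was not tested. Fth1 in debris with oligodendrocyte markers was 11514, 6309 and 1209 CPM in the fed libraries, the last from 18 barcodes, and 15116 and 11405 CPM in the fasted libraries. In debris with neuron markers it was 3518, 3465 and 3130 CPM in fed and 3454 and 4955 CPM in fasted libraries, lower than with oligodendrocyte markers in all libraries but fed replicate 3.

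**Figure D1:**
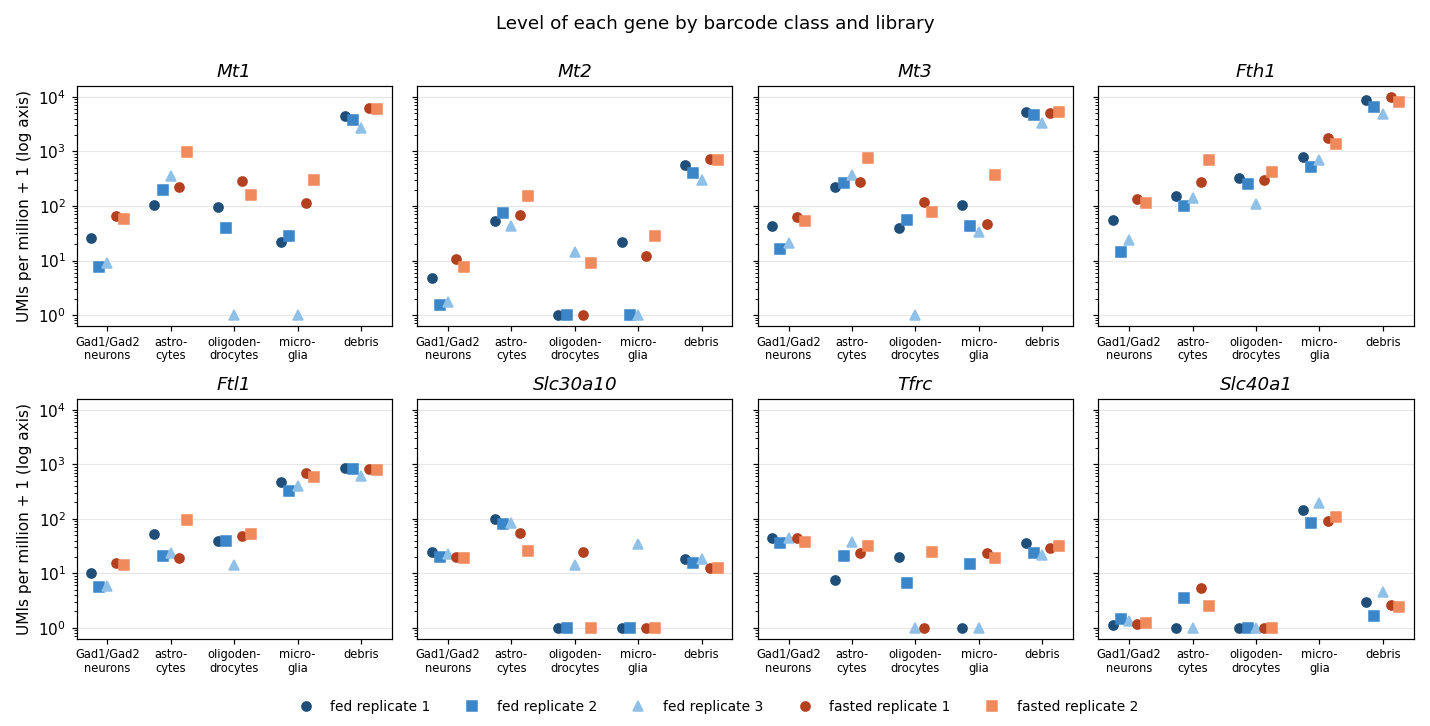
Level of each of the 8 genes in CPM plus 1 (log axis) in Gad1/Gad2 neurons, astrocytes, oligodendrocytes, microglia and debris barcodes, with 1 point per library (blue, fed; red, fasted). Mt1, Mt2, Mt3, Fth1 and Ftl1 sit highest in debris, with Mt1 at 2646 to 6256 CPM, while Slc40a1 sits highest in microglia, at 82.3 to 198 CPM.

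Mt1 was higher in astrocytes than in neurons. In astrocytes it stood at 105, 195 and 349 CPM in fed replicates 1 to 3 and at 226 and 959 CPM in fasted replicates 1 and 2. In neurons it stood at 24.5, 6.54 and 7.99 CPM in fed and 63.4 and 57.5 CPM in fasted libraries, so the 2 classes did not overlap. The 349 CPM of fed replicate 3 rested on 1 nucleus with 110 of the 122 UMIs and was 36.0 CPM without it. Oligodendrocytes stood at 94.7, 38.6 and 0 CPM in fed and 281 and 156 CPM in fasted libraries, which was below neurons in fed replicate 3, above astrocytes in fasted replicate 1 and between them in the other libraries. The 0 in fed replicate 3 came from 74597 UMIs, and a count of 0 there allows up to 40.2 CPM, counting error only. Over libraries, the fitted difference between astrocytes and neurons was 3.73 ± 0.39 on the log2 scale for Mt1 (SE, n = 5 libraries, adjusted p = 2.92e-10, edgeR quasi-likelihood test with Benjamini-Hochberg adjustment over all genes).

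Mt2, the second of the 2 widely expressed metallothioneins, and Mt3 followed. Mt2 in astrocytes was 52.5, 72.5 and 42.9 CPM in fed and 66.5 and 152 CPM in fasted libraries, against 0.513 to 9.69 CPM in neurons. Mt3 in astrocytes was 223, 267 and 374 CPM in fed and 271 and 761 CPM in fasted libraries, against 14.9 to 61.6 CPM in neurons. The astrocyte values were above the neuron values in all 5 libraries for both genes. The log2 differences were 4.45 ± 0.35 for Mt2 (adjusted p = 2.22e-13) and 3.33 ± 0.31 for Mt3 (adjusted p = 1.20e-11) by the same edgeR test. Oligodendrocytes were lower than astrocytes, by log2 differences of -2.14 ± 0.49 for Mt1 (adjusted p = 0.000669), -4.26 ± 0.84 for Mt2 (adjusted p = 8.38e-05) and -2.88 ± 0.42 for Mt3 (adjusted p = 7.52e-07, edgeR). Against neurons, oligodendrocytes differed by 0.19 ± 1.30 for Mt2 and 0.45 ± 0.46 for Mt3 (adjusted p = 0.929 and 0.465, edgeR), which did not pass the test. For Mt1 that log2 difference was 1.59 ± 0.52 (adjusted p = 0.0120, edgeR), and with the mitochondrial bound at 0.2% it was 0.98 (adjusted p = 0.370).

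The ferritin subunits were higher in both glial classes than in neurons. Fth1 in oligodendrocytes was 322, 248 and 107 CPM in fed and 304 and 411 CPM in fasted libraries. In astrocytes it was 151, 99.95 and 140 CPM in fed and 271 and 699 CPM in fasted libraries, and in neurons 53.9, 13.4 and 23.2 CPM in fed and 134 and 111 CPM in fasted libraries. Within each library, neurons had the lowest of the 3 values, while the order of astrocytes and oligodendrocytes changed between libraries. The log2 differences from neurons were 2.14 ± 0.37 in oligodendrocytes (adjusted p = 1.01e-05) and 2.03 ± 0.33 in astrocytes (adjusted p = 2.28e-06) for Fth1 by the edgeR test. For Ftl1 they were 1.96 ± 0.48 (adjusted p = 0.000862) and 2.20 ± 0.31 (adjusted p = 1.66e-07, edgeR). The Ftl1 UMIs were few, at 8, 8 and 8 in fed and 4 and 62 in fasted astrocytes. In oligodendrocytes they were 2, 7 and 1 in fed and 2 and 13 in fasted libraries. In fasted replicate 1 Ftl1 was 17.7 CPM in astrocytes, 8.93 CPM without the nucleus that held the most, against 14.3 CPM in neurons. Between oligodendrocytes and astrocytes the differences were 0.11 ± 0.37 for Fth1 and -0.24 ± 0.46 for Ftl1 (adjusted p = 0.881 and 0.779, edgeR), which did not pass the test. Microglia, with 5 to 29 nuclei per library and no test, held the highest nuclear levels. Their Fth1 was 780, 508 and 692 CPM in fed and 1732 and 1381 CPM in fasted libraries, and their Ftl1 329 to 702 CPM. Ribosomal protein genes took 1.69% to 4.01% of UMIs in microglia, against 0.219% to 0.381% in neurons. The part of this in the microglial values was not tested.

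The genes of metal transport divided the classes differently. Slc30a10, the manganese exporter, was 98.4, 80.0 and 82.9 CPM in astrocytes of the fed libraries and 53.2 and 24.4 CPM in those of the fasted libraries. In neurons it was 23.3, 18.5 and 21.7 CPM in fed and 19.3 and 18.3 CPM in fasted libraries. Oligodendrocytes held 2 UMIs of it in all. Its log2 difference from neurons was 1.503 ± 0.22 in astrocytes (adjusted p = 3.50e-07) and -2.67 ± 0.81 in oligodendrocytes (adjusted p = 0.00676, edgeR), the latter 0.0758 as an adjusted p with the mitochondrial bound at 0.2%. Oligodendrocytes differed from astrocytes by -4.18 ± 0.70 (adjusted p = 7.95e-06, edgeR). Tfrc, which brings transferrin-bound iron into the cell, was 43.9, 35.7 and 43.2 CPM in neurons of fed and 43.7 and 37.2 CPM in neurons of fasted libraries, the smallest ratio of highest to lowest library among the 7 genes tested there. It was lower in oligodendrocytes than in neurons by a log2 difference of -1.75 ± 0.48 (adjusted p = 0.00275, edgeR), and in astrocytes by -0.72 ± 0.25 (adjusted p = 0.0144, edgeR, and 0.0797 with DESeq2). Oligodendrocytes held 8 UMIs of Tfrc in all, and astrocytes 1 to 20 per library. The oligodendrocyte count was 0 in fed replicate 3 and fasted replicate 1, where that allows up to 40.2 and 70.3 CPM. Slc40a1, the iron exporter, was 144, 82.3 and 198 CPM in microglia of fed and 90.5 and 109 CPM in microglia of fasted libraries, and at most 4.44 CPM in astrocytes, 0.449 CPM in neurons and 3.47 CPM in debris. No UMI of it was found in oligodendrocytes.

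Of the 7 genes tested, 7 were called between astrocytes and neurons, where 57.8% of all genes were called, and 5 between oligodendrocytes and neurons, where 44.5% were. Between oligodendrocytes and astrocytes 4 were called, where 30.3% were. Slc40a1 did not pass the filter on low counts in these fits. The classes also differed in mitochondrial share. Pooled over nuclei, it was 0.100% to 0.316% in neurons, 0.206% to 0.493% in astrocytes and 0.191% to 0.522% in oligodendrocytes.

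**Figure D2:**
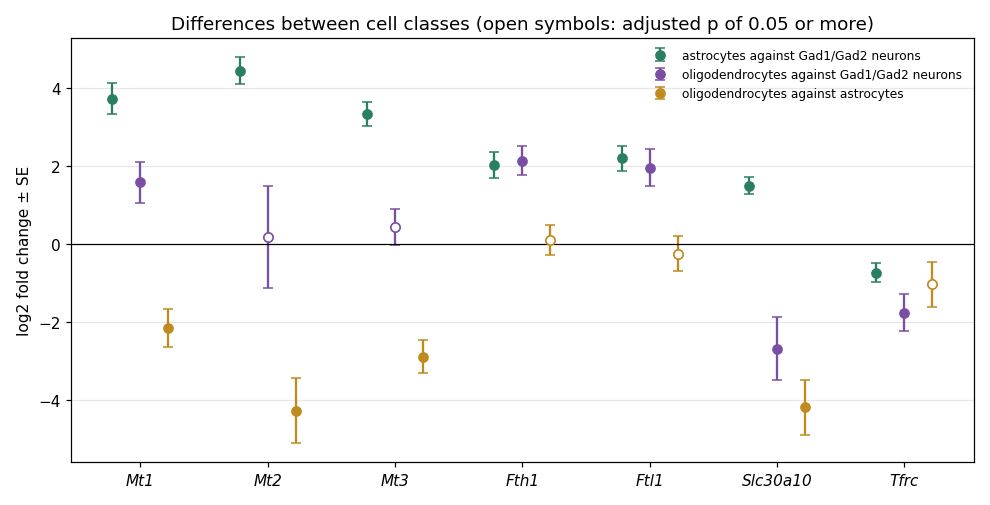
Fitted log2 differences between cell classes with their standard errors for the 7 genes tested over 5 libraries, for astrocytes against neurons, oligodendrocytes against neurons and oligodendrocytes against astrocytes (open symbols, adjusted p of 0.05 or more). The metallothioneins and Slc30a10 were higher in astrocytes than in both other classes, while Fth1 and Ftl1 were higher in both glial classes than in neurons, by 1.96 to 2.20.

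Because so much of this mRNA lay in debris, the UMIs per nucleus were set against a debris level. For each library, the gene's ratio to mitochondrial UMIs in debris was multiplied by the mitochondrial UMIs of the nuclei, which gives the UMIs that debris of that makeup would bring along if every mitochondrial UMI in a nucleus came from it. In neurons the observed Mt1 UMIs were 0.764, 0.229 and 0.568 of that level in fed and 0.736 and 0.692 in fasted libraries. The Fth1 UMIs were 0.856, 0.273 and 0.897 of it in fed and 0.983 and 0.980 in fasted libraries. For Mt3 the values ran from 0.420 to 1.11 and for Ftl1 from 0.740 to 1.49. Without the nucleus with the most UMIs of the gene, Mt3 was 1.06, 0.398 and 1.09 in fed and 0.890 and 0.709 in fasted libraries. Ftl1 was then 1.46, 0.720 and 1.44 in fed and 1.27 and 1.12 in fasted libraries. Mt2 was then 0.866, 0.153 and 0.372 in fed and 0.963 and 0.648 in fasted libraries. For Mt1, Mt2, Mt3 and Ftl1 the fed and fasted libraries overlapped on this scale, while for Fth1 they did not. How many of all genes were apart on it was not counted. The neuronal counts of these 5 genes were thus at or below the debris level or within 1.49 times of it in all 5 libraries. For Slc30a10 and Tfrc the neuronal counts were 115 to 235 and 86.7 to 391 times the debris level.

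In astrocytes the Mt1 UMIs were 1.47, 4.98 and 9.38 times the debris level in fed and 1.68 and 5.98 times in fasted libraries. Without the nucleus that held the most Mt1 UMIs in each library they were 1.29, 4.82 and 1.07 times in fed and 1.57 and 4.10 times in fasted libraries, so the value of fed replicate 3 fell to near the debris level. The Mt2 UMIs were 4.31 to 17.9 times and the Mt3 UMIs 2.51 to 7.99 times the level, and 3.12 to 16.7 and 2.33 to 5.29 times without the nucleus that held the most. Whether such nuclei carried cytoplasm was not tested. Fth1 was 1.08 to 3.20 times the level in astrocytes (0.961 to 2.72 without the highest nucleus). Oligodendrocytes had 1.35 to 3.96 times the level of Fth1 (0.963 to 3.88 without the highest nucleus). Microglia had 3.59 to 7.27 times the level of Fth1 (2.71 to 5.92 without the highest nucleus). In microglia Ftl1 was 18.3 to 33.4 times and Slc40a1 2071 to 5686 times the level. The Slc40a1 values rest on 6 to 12 UMIs per library in microglia and 1 to 20 in debris. The comparison assumes that debris around each nucleus has the average makeup of the library's debris, and this was not tested.

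**Figure D3:**
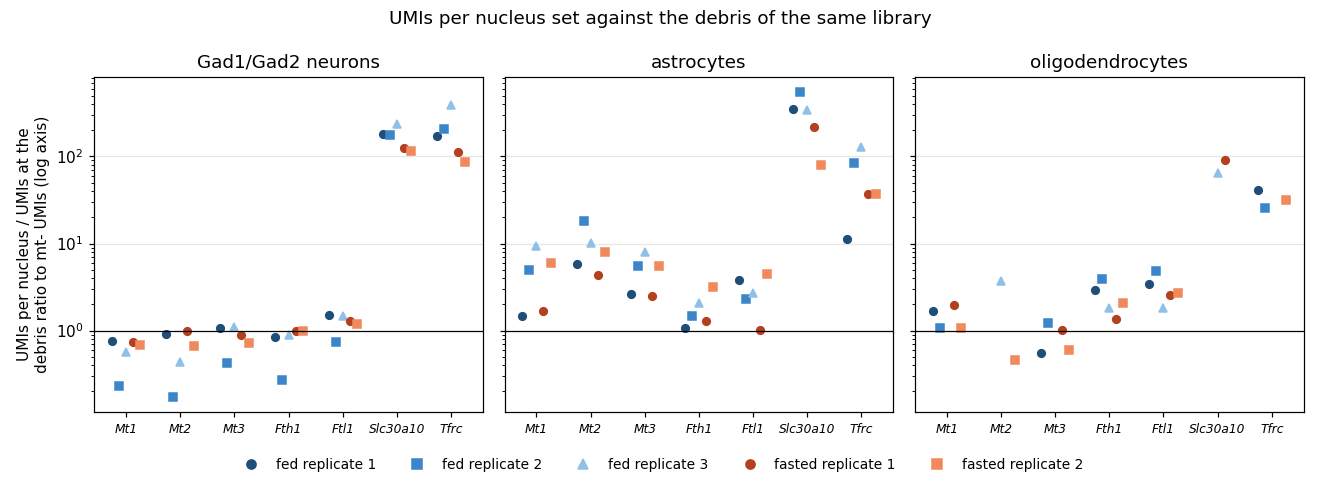
UMIs per nucleus of 7 genes divided by the UMIs expected at the debris ratio to mitochondrial UMIs (log axis, line at 1), by cell class, with 1 point per library (blue, fed; red, fasted). In neurons Mt1 and Fth1 lie at or below the line, between 0.229 and 0.983, whereas Slc30a10 and Tfrc lie far above it and Mt1 in astrocytes lies at 1.47 to 9.38, the highest of which (fed replicate 3) is 1.07 without 1 nucleus.

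Metallothionein and ferritin mRNA in neurons was higher in the fasted than in the fed libraries, and these differences are what the genes were chosen on. Mt1 was 24.5, 6.54 and 7.99 CPM in fed and 63.4 and 57.5 CPM in fasted libraries, a mean of 13.01 ± 9.97 (SD, n = 3) against 60.5 ± 4.21 (SD, n = 2). Per nucleus that was 0.233, 0.128 and 0.128 UMIs in fed and 0.477 and 1.14 UMIs in fasted libraries. Mt2 was 3.71, 0.513 and 0.699 CPM in fed and 9.69 and 6.59 CPM in fasted libraries. The fed and fasted libraries did not overlap for either gene, and fed replicate 1 lay nearest the fasted libraries for both.

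Mt3 was 41.3, 14.9 and 19.6 CPM in neurons of fed and 61.6 and 52.5 CPM in neurons of fasted libraries, again without overlap. Fth1 was 53.9, 13.4 and 23.2 CPM in fed and 134 and 111 CPM in fasted libraries, a mean of 30.1 ± 21.1 (SD, n = 3) against 122 ± 16.0 (SD, n = 2). Ftl1 was 9.28, 4.62 and 4.74 CPM in fed and 14.3 and 13.1 CPM in fasted libraries. For all 5 storage genes the fasted libraries lay above the fed ones, while Slc30a10 and Tfrc overlapped between the groups. Over all 13562 genes tested, 11.2% had both fasted libraries above every fed library. Set against the debris level of each library, as above, the groups overlapped for Mt1, Mt2, Mt3 and Ftl1 and did not for Fth1.

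The fitted log2 differences between fasted and fed neurons were 2.28 ± 0.46 (SE) for Mt1, 2.53 ± 0.64 for Mt2, 1.19 ± 0.36 for Mt3, 2.04 ± 0.45 for Fth1 and 1.17 ± 0.29 for Ftl1. For Slc30a10 and Tfrc they were -0.19 ± 0.15 and -0.04 ± 0.15. At an adjusted p of 0.05 (edgeR) 0 of the 7 were called, where 0.00737% of all genes were. DESeq2 called 0 and the likelihood ratio test of edgeR 4, and 5 were at an unadjusted p under 0.05. With the preparation batch as a block the differences were 2.17 ± 0.16 for Mt1, 2.24 ± 0.31 for Mt2, 1.17 ± 0.13 for Mt3, 2.099 ± 0.15 for Fth1 and 1.06 ± 0.19 for Ftl1. The spread there is estimated only from the batches that held both groups, so these SEs are poorly known. In that fit these 5 of the 7 were called, where 3.01% of all genes were called. The genes were chosen on this contrast, so their calls in neurons under any setting are a description. In 12 of 12 alternative settings the 5 differences kept their sign, whereas that of Tfrc did so in 7.

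Several other quantities moved with feeding state in the same neurons. The pooled mitochondrial share was 0.164%, 0.150% and 0.100% in fed and 0.316% and 0.225% in fasted libraries, and ribosomal protein genes took 0.285%, 0.219% and 0.239% of UMIs in fed and 0.381% and 0.326% in fasted libraries. The summed level of 10 astrocyte markers in neurons was 104 to 126 CPM in fed and 149 to 168 CPM in fasted libraries, with no marker at 0 in all libraries. For 13 oligodendrocyte markers it was 143 to 200 CPM against 233 to 248 CPM, and for 8 microglial markers 15.2 to 19.7 CPM against 26.1 to 31.6 CPM, again with none at 0. The part of these markers in the values of the 5 genes was not tested.

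Neurons were therefore also compared within bins of mitochondrial share. Among neurons with 0.1% to 0.2% of mitochondrial UMIs, which numbered 104 to 371 per library, Mt1 was 24.6, 6.43 and 6.98 CPM in fed and 48.9 and 50.8 CPM in fasted libraries. Fth1 in that bin was 43.5, 12.9 and 22.7 CPM in fed and 89.9 and 118 CPM in fasted libraries. Mt3 was 39.4, 23.7 and 17.8 CPM in fed and 49.7 and 44.3 CPM in fasted libraries. The groups did not overlap for any of the 3 genes. How many of all genes were without overlap was not counted in this bin. The log2 differences within it were 1.98 ± 0.40 for Mt1, 1.98 ± 0.60 for Mt2, 0.79 ± 0.27 for Mt3, 1.98 ± 0.33 for Fth1 and 1.07 ± 0.34 for Ftl1. In that fit 0 of the 7 members tested were called, where 0 of 10823 genes were (edgeR). Among neurons with 0.4% to 0.8%, Mt1 stood higher, at 41.5, 10.95 and 29.5 CPM in fed and 92.0 and 104 CPM in fasted libraries. In those neurons Fth1 was 147, 18.9 and 58.0 CPM in fed and 196 and 173 CPM in fasted libraries.

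**Figure D4:**
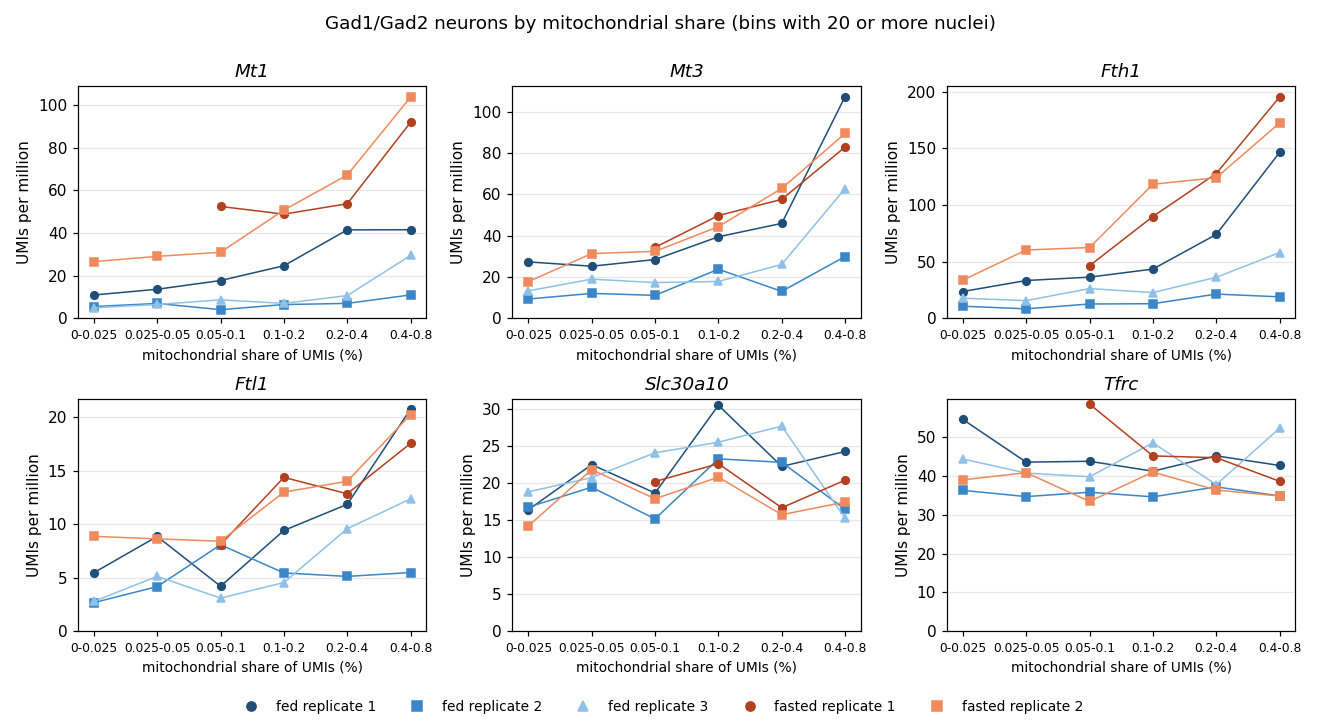
Levels in Gad1/Gad2 neurons by the nucleus's mitochondrial share of UMIs, in bins with 20 or more nuclei, with 1 line per library (blue, fed; red, fasted). Mt1 and Fth1 in the fasted libraries lie above the fed libraries at a share of 0.1% to 0.2% (48.9 and 50.8 CPM of Mt1 against 6.43 to 24.6), while Tfrc and Slc30a10 run level.

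In astrocytes the values of several of these genes rested on few nuclei. Fed replicate 3 had 122 UMIs of Mt1 in 73 astrocytes, of which 1 nucleus held 110. Fasted replicate 2 had 630 UMIs of Mt1 in 144 astrocytes, of which 1 nucleus held 205 and the highest 5 held 65.1%. Without the nucleus that held the most, Mt1 was 93.6, 188 and 36.0 CPM in fed and 213 and 655 CPM in fasted libraries, in place of 105, 195 and 349 CPM and 226 and 959 CPM. For Mt1 the groups overlapped with that nucleus and did not overlap without it. How many of all genes were without overlap after such a removal was not counted. Mt3 went from 374 to 141 CPM in fed replicate 3 and from 761 to 547 CPM in fasted replicate 2. For Mt2 and Mt3 the groups overlapped with and without the highest nucleus.

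Fth1 in astrocytes was 151, 99.95 and 140 CPM in fed and 271 and 699 CPM in fasted libraries, and 134, 88.2 and 72.1 CPM and 254 and 593 CPM without the highest nucleus, with no overlap in either case. Slc30a10 was the member that was lower in the fasted libraries, from 15, 32 and 29 UMIs in fed and 12 and 16 UMIs in fasted libraries. Its mean was 87.1 ± 9.92 CPM (SD, n = 3) in fed and 38.8 ± 20.4 CPM (SD, n = 2) in fasted libraries. Over all 6192 genes tested in astrocytes, 10.3% had both fasted libraries above every fed library and 10.8% had both below.

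The genes were chosen with their fed and fasted values in view, so their calls in astrocytes are a description. The log2 differences between fasted and fed astrocytes were 1.44 ± 0.48 (SE) for Mt1, 1.03 ± 0.38 for Mt2, 0.86 ± 0.35 for Mt3, 1.96 ± 0.35 for Fth1, 1.20 ± 0.57 for Ftl1, -1.31 ± 0.40 for Slc30a10 and 0.21 ± 0.58 for Tfrc. Fth1 was the 1 of these 7 called, where 0.484% of all genes were (edgeR). It was not called without fed replicate 1, fed replicate 2 or fasted replicate 2, with differences of 2.05, 1.84 and 1.11, nor with graph clusters in place of the marker gates, with 1.04. With the batch as a block 4 were called, Fth1, Mt1, Mt3 and Slc30a10, where 1.87% of all genes were, with differences of 2.04 ± 0.30, 1.91 ± 0.30, 1.03 ± 0.27 and -1.39 ± 0.39. Without fasted replicate 2 the differences were 0.04 for Mt1, -0.09 for Mt3 and -0.66 for Ftl1, and this was the 1 alternative in which the sign of Mt3 or Ftl1 changed. The same astrocytes of fasted replicate 2 had 1.20% ribosomal protein UMIs against 0.239% to 0.491% in the other libraries, and the part of this in the values was not tested.

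Oligodendrocytes gave few UMIs. Mt1 was 94.7, 38.6 and 0 CPM in fed and 281 and 156 CPM in fasted libraries, from at most 39 UMIs in a library. Its log2 difference was 2.30 ± 0.75. Fth1 was 322, 248 and 107 CPM in fed and 304 and 411 CPM in fasted libraries, with overlap, and a log2 difference of 0.74 ± 0.42. The other 6 genes did not pass the filter. Neither of these 2 was called by edgeR, without or with the block, where 0% and 2.16% of all genes were. DESeq2 called 0, the likelihood ratio test 1, and 1 was at an unadjusted p under 0.05. These counts are also a description, since the genes were chosen with such values in view. In microglia, with no test, Fth1 was 508 to 780 CPM in fed and 1381 and 1732 CPM in fasted libraries. Ribosomal protein genes took 2.82%, 1.89% and 1.69% of microglial UMIs in fed and 4.01% and 3.21% in fasted libraries. The part of this in the Fth1 values was not tested.

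In debris the metallothioneins Mt1 and Mt2 were higher in the fasted libraries, while Mt3 and the ferritin subunits overlapped. Mt1 in debris was 4404, 3822 and 2646 CPM in fed and 6256 and 5973 CPM in fasted libraries, and Mt2 was 553, 394 and 303 CPM in fed and 718 and 711 CPM in fasted libraries. Neither overlapped, and over all 12475 genes tested 8.07% had both fasted libraries above every fed library. Mt3 was 5289, 4765 and 3338 CPM in fed and 5002 and 5199 CPM in fasted libraries, with overlap. Fth1 was 8644, 6585 and 4859 CPM in fed and 9872 and 8138 CPM in fasted libraries, and Ftl1 was 854, 836 and 605 CPM in fed and 809 and 790 CPM in fasted libraries, both with overlap. Fed replicate 3, whose debris numbered 123 barcodes, was the lowest library for each of these 5 genes.

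The log2 differences in debris were 0.74 ± 0.41 (SE) for Mt1, 0.74 ± 0.32 for Mt2, 0.17 ± 0.41 for Mt3, 0.42 ± 0.46 for Fth1 and 0.05 ± 0.31 for Ftl1. Those of Slc30a10, Tfrc and Slc40a1 were -0.58 ± 0.24, -0.01 ± 0.24 and -0.32 ± 0.57. By edgeR 0 of the 8 were called, where 0.0721% of all genes were, as with DESeq2 and the likelihood ratio test, and 2 were at an unadjusted p under 0.05. With the batch as a block Mt1 and Mt2 were called, with differences of 0.52 ± 0.08 and 0.55 ± 0.10, where 1.95% of all genes were. In that fit Mt3 was at -0.03 ± 0.08, Fth1 at 0.19 ± 0.08 and Ftl1 at -0.13 ± 0.09. Calls of these genes in debris are likewise a description, given how the genes were chosen.

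Ratios between the genes within a library were described without a test. In debris the ratio of Mt1 to Mt3 UMIs was 0.833, 0.802 and 0.793 in fed and 1.25 and 1.15 in fasted libraries. In neurons it was 0.593, 0.438 and 0.407 in fed and 1.03 and 1.09 in fasted libraries, and in astrocytes 0.471, 0.729 and 0.931 in fed and 0.836 and 1.26 in fasted libraries. The groups were apart in debris and neurons and overlapped in astrocytes through fed replicate 3. How many ratios of other genes were apart in this way was not counted, and these genes were chosen on such values. In astrocytes of fed replicate 3 the highest nucleus held 110 of 122 Mt1 UMIs, and the highest for Mt3 held 84 of 131. Without the highest nucleus Mt1 and Mt3 stood there at 36.0 and 141 CPM, and the ratio was not computed again. The ratio of Mt2 to Mt1 in debris stayed between 0.103 and 0.125 in all 5 libraries. The ratio of Fth1 to Ftl1 in neurons was 5.80, 2.90 and 4.88 in fed and 9.36 and 8.49 in fasted libraries, and in debris 10.1, 7.88 and 8.03 in fed and 12.2 and 10.3 in fasted libraries.

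**Figure D5:**
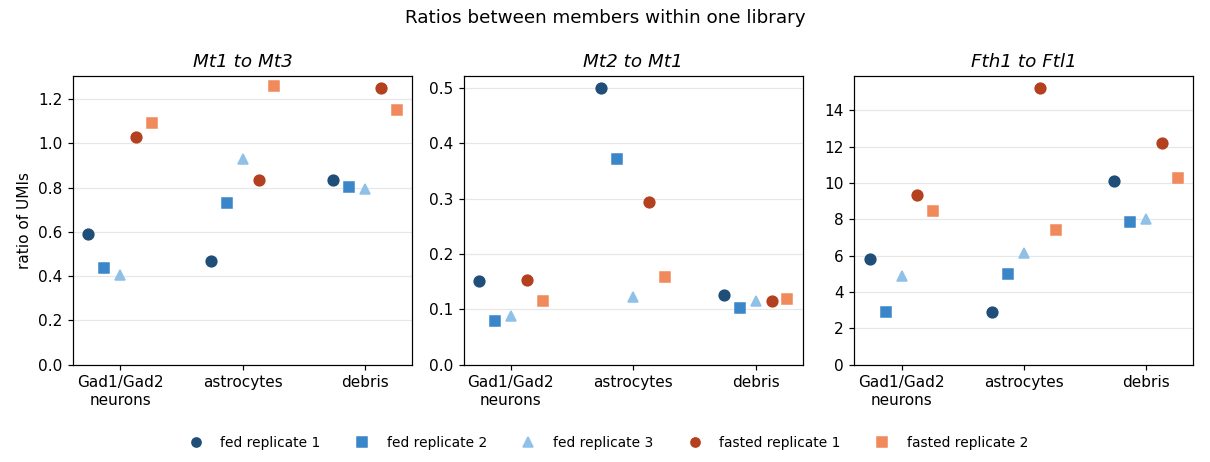
Ratios of UMIs between members within a library in Gad1/Gad2 neurons, astrocytes and debris, with 1 point per library (blue, fed; red, fasted). Mt1 to Mt3 lies at 0.793 to 0.833 in fed debris and at 1.15 and 1.25 in fasted debris, while Mt2 to Mt1 in debris lies at 0.103 to 0.125 whatever the feeding state.

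Genes of the surrounding pathways were tested between fasted and fed libraries for comparison, by the edgeR test with adjustment over all genes. The lists were chosen with earlier results of these data known. The zinc list held 22 genes, namely zinc transporters, the zinc sensor Mtf1 and a further metallothionein, Mt4. Of these, 20 were tested in neurons, 10 in astrocytes and 19 in debris, and none was called. Of 25 genes of iron uptake, release and regulation, 17, 9 and 17 were tested and none was called. Of 22 genes of haem and iron-sulphur cluster metabolism, 20, 7 and 21 were tested and none was called. The same held for 9 copper genes, 4 manganese genes and 16 genes linked to NRF2, the regulator of the oxidative stress response. Over these lists together, 4 of 86 tested genes in neurons, 3 of 42 in astrocytes, 0 of 6 in oligodendrocytes and 1 of 85 in debris were at an unadjusted p under 0.05, and DESeq2 called none. The medians of the log2 differences in neurons were -0.05 for the zinc, 0.06 for the iron and 0.03 for the haem list. They were -0.02 for the copper, 0.06 for the manganese and 0.28 for the NRF2 list. The 3 metallothioneins stood at 2.28, but they were chosen on these values, so that comparison is a description. With the batch as a block, 3 of the listed genes were called higher in fasted neurons, Trf (transferrin), Gpx4 and Gstm1, and 2 lower in fasted debris, Prdx1 and Slc7a11. In those fits 3.01% of all genes in neurons and 1.95% in debris were called.

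Glucocorticoid-induced genes formed the list with calls in the fit without the block. This list, which also holds the receptor genes Nr3c1 and Nr3c2, was chosen with earlier results of these data known. Its p-values are therefore a description. Of 17 listed, 16 were tested in debris and 4 were higher in fasted libraries, where 0.0721% of all genes were called. Sult1a1, a sulphotransferase, was 13.5, 11.5 and 12.1 CPM in fed and 70.3 and 65.6 CPM in fasted libraries (log2 difference 2.37 ± 0.24, adjusted p = 7.17e-05, edgeR). Fkbp5, a chaperone of the glucocorticoid receptor, was 34.2, 41.8 and 27.7 CPM in fed and 83.7 and 109 CPM in fasted debris (1.41 ± 0.23, adjusted p = 0.0124, edgeR, and 0.112 without fed replicate 3). Cdkn1a, a cell cycle inhibitor, was 5.05, 0 and 1.73 CPM in fed and 31.2 and 51.3 CPM in fasted debris (3.45 ± 0.40, adjusted p = 0.000248, edgeR), and was not called by DESeq2 (adjusted p = 1.000). Plin4, a lipid droplet protein, had a log2 difference of 2.18 ± 0.41 (adjusted p = 0.0495, edgeR), lost with DESeq2 (0.128) and without fed replicate 1, fed replicate 3 or fasted replicate 2 (0.0640, 0.445 and 0.297).

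In astrocytes 1 of 8 tested genes of that list was called, where 0.484% of all genes were. Fkbp5 was 59.1, 52.5 and 34.3 CPM in fed and 191 and 268 CPM in fasted libraries (log2 difference 2.30 ± 0.31, adjusted p = 0.0287, edgeR). Its adjusted p was 0.0801 without fed replicate 1, 0.150 without fed replicate 2 and 0.811 without fasted replicate 2. In neurons 0 of 15 and in oligodendrocytes 0 of 8 were called by edgeR, with 9 and 2 at an unadjusted p under 0.05 and 1 (Fkbp5) and 0 called by DESeq2. With the batch as a block 6 of 15 were called higher in neurons, 2 of 12 in astrocytes, 2 of 10 in oligodendrocytes and 10 of 16 in debris. Of all genes, 3.01%, 1.87%, 2.16% and 1.95% were called in either direction in the same fits. The median log2 difference of the list in debris was 0.93, beside 0.74 for the 3 metallothioneins. In neurons these medians were 0.73 and 2.28, and in astrocytes 0.44 and 1.03. In oligodendrocytes the list stood at 0.75 and Mt1, the 1 metallothionein tested there, at 2.30. The metallothioneins were chosen on such values, so these medians are a description.

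The same lists were counted between classes. Of 14 zinc genes tested, 6 were higher and 2 lower in astrocytes than in neurons, of 12 iron genes 4 were higher and 3 lower, and of 13 NRF2-linked genes 9 were higher and 2 lower. The calls on the zinc and iron lists were thus near the 57.8% of all genes called in that comparison. In oligodendrocytes, where 44.5% of all genes were called against neurons, 5 of 12 iron genes were higher and 2 lower, and 2 of 14 zinc genes were higher and 1 lower. Chosen after their values were seen, the zinc importer Slc39a12 was higher in astrocytes by a log2 difference of 6.82 ± 0.19 (adjusted p = 5.54e-26, edgeR), and Trf, the iron carrier bound by the receptor that Tfrc encodes, was higher in oligodendrocytes by 7.44 ± 0.27 (adjusted p = 2.99e-22, edgeR).

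The genes whose levels ran most like those of the members over the 15 sums of neurons, astrocytes and oligodendrocytes were named by Pearson's r of log2(CPM + 1), among 9105 genes with a mean of at least 10 CPM. For Mt1 they were Gstm1 (r = 0.950), Rnd2 (0.931) and Pfdn5 (0.922), for Mt2 Acot11 (0.953), Tnfaip8 (0.947) and Cnn3 (0.933), and for Mt3 Ssr3 (0.937), Prdx6 (0.936) and Zfp521 (0.931). For Fth1 they were the ribosomal protein genes Rpl32 (0.886) and Rpl37a (0.857) and Purb (0.854), and for Ftl1 Cd81 (0.870), Dnajc19 (0.870) and Lipe (0.863). The sums share libraries and differ in depth, so these values are a description.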

How the data were processed

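Nuclei from the CeA of fed and fasted mice were sequenced by the authors with a 10x Genomics 3′ assay. The deposited matrices hold raw UMI counts per gene and barcode, which, per the file headers, were made with Cell Ranger 5.0.0. The study's methods name GRCm39 with introns counted, whereas the submitters' processing notes name Cell Ranger 2.1.1 and mm10, so coordinates here are those of GRCm39 in GENCODE M39. Counting introns raises the share of unspliced nuclear RNA among the UMIs. Reads shared between ferritin genes and their pseudogene copies could be split or dropped, so the levels of Fth1 and Ftl1 are uncertain to that extent.

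The members and gene lists were chosen with earlier results of these data known. The named genes were the 8 members, up to 5 called genes per list and class, and the 3 genes of most similar pattern to each storage gene. Classes required per 10000 UMIs at least 30 of astrocyte, 60 of oligodendrocyte, 90 of precursor or 20 of microglial markers with 5 or more UMIs, or 45 of neuronal markers with 1 Gad1 or Gad2 UMI. No doublet caller was run, and 50 nuclei that met more than 1 gate and 609 that met none were left out. Pairs of libraries shared 0 to 22 barcodes. A further 3141 barcodes (13.2%) were neither nuclei nor debris.

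UMIs summed per class and library were tested with edgeR 4.0.16 in R 4.3.3 (TMM, filterByExpr, quasi-likelihood test, Benjamini-Hochberg adjustment over all genes tested), fasted against fed without a block and between classes with the library as a block. The test was checked on simulated counts. DESeq2 1.42.0, a likelihood ratio test, no filter, a mitochondrial bound of 0.2%, a debris bound of 10%, graph clusters in place of gates, a batch block and leaving out each library were alternatives. The replicate numbers are given in the labels, and a supplementary legend of the study places the fed and fasted libraries of the same number in 1 preparation batch. The labels were matched to that legend by number, and fed replicate 3 was taken as its fed library without a fasted partner. The deviations of same-numbered libraries correlated at 0.353 and 0.520 in neurons, 0.112 and -0.03 in astrocytes, 0.217 and 0.0760 in oligodendrocytes and 0.291 and 0.290 in debris. Each library pooled 2 mice, so p-values of fasted against fed without a block measure the spread between pools. With the library or the batch as a block, p-values measure the spread left after differences between libraries or batches are removed. Intervals for counts of 0 cover counting error only.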

Additional observations from a re-analysis of the deposited data

How the results depend on the processing

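The number of genes called between fasted and fed depended on the fit. In neurons it was 1 and became 73 with DESeq2, 153 with the likelihood ratio test, 96 without the filter, 422 with the replicate block, 0 in neurons of matched mitochondrial share (chosen after seeing the data), and 0 to 7 when 1 library was left out. In astrocytes it was 30 and became 18 with DESeq2, 88 with the likelihood ratio test, 140 without the filter, 135 with the replicate block, 106 with the block in the 2 complete batches (chosen after seeing the data), 4 with graph clusters, and 0 to 67 when 1 library was left out. In oligodendrocytes it was 0 with edgeR, with 133 genes at an unadjusted p under 0.05, and 0 with DESeq2, 26 with the likelihood ratio test, 22 without the filter, 53 with the replicate block and 0 to 17 when 1 library was left out. In debris it was 9 and became 14 with DESeq2, 46 with the likelihood ratio test, 74 without the filter, 253 with the replicate block and 5 to 108 when 1 library was left out. Between debris and neurons, 7623 calls became 11821 without the filter, which tests more genes. The cause of the other shifts was not tested. The block compares within the 2 batches that held both groups and so gives fed replicate 3 no weight in the difference. Its spread is estimated from those 2 batches and from sharing over genes. The standard errors and call counts with the block are therefore poorly known.

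The difference of Mt3 in astrocytes, called with the replicate block, was -0.09 without fasted replicate 2. Astrocytes and oligodendrocytes could not be compared between fed and fasted with the mitochondrial bound at 0.2%, which left 2 and 0 nuclei in fasted replicate 1. With 2 fasted libraries the spread between pools is poorly known. In the smallest oligodendrocyte sum, of 42703 UMIs, a count of 0 allows up to 70.3 CPM.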

Other observations

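Ftl1-ps1, a listed pseudogene of the ferritin light chain, stood at 16.2 to 21.3 CPM in neurons and 3.47 to 11.1 CPM in debris over the 5 libraries, whereas Ftl1 stood at 4.62 to 14.3 CPM in neurons and 605 to 854 CPM in debris. Sult1a1 and Cdkn1a, which were higher in fasted debris, lay higher in neurons of both fasted libraries than in those of the fed libraries, with 0.200 to 0.834 CPM of Sult1a1 in fed and 1.70 and 1.85 CPM in fasted libraries, and 0.350 to 0.769 CPM of Cdkn1a in fed and 2.20 and 2.90 CPM in fasted libraries. In oligodendrocytes Fkbp5 was 75.8, 155 and 67.0 CPM in fed and 351 and 490 CPM in fasted libraries, from 4 to 123 UMIs.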
